A study of Mus musculus with 2 samples.

Results

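The Wnt genes described here are 10 of the 24346 gene symbols measured in skin wounds of WT and PU.1-/- mice. They are the ligands Wnt4, Wnt5a and Wnt11, the secreted inhibitors Wif1, Dkk2, Dkk3, Sfrp1, Sfrp2 and Sfrp4, and the target gene Axin2. The list was made by gene name, with measured values in view, and Sfrp4 was selected on its higher value in the PU.1-/- wound. The ratios between the libraries below are therefore a description of these genes. All 10 were found in both libraries, at 1 FPKM or more in each. FPKM is the number of sequenced fragments scaled to the length of the transcript and to the depth of the library.

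Pups of the C57BL/6J strain, 1 day old, received a full-thickness 1-cm incision in the back skin, and the wound was taken 24 h later. The accompanying design text describes excisional wounds. The WT group is 1 library of wild-type littermates, and the PU.1-/- group (labelled PU.1_KO) is 1 library of pups without PU.1, the transcription factor of myeloid and lymphoid development encoded by Spi1. The deletion is carried by the whole animal, and the number of pups behind each library is not stated.

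With 1 library per genotype there is no replicate check, no p-value and no spread between animals. The intervals given are exact intervals at 95% on estimated read numbers (binomial for ratios, Poisson for levels), and they cover counting error only. Read numbers were estimated from the steps in which low values move, which put the depth near 13.7 M fragments for WT and 15.8 M for PU.1-/-. Spi1 had 35.4 FPKM in WT against 1.45 FPKM in PU.1-/-, which is 4.12% of the WT level (interval of the ratio 0.0294 to 0.0559). Xist was listed at 0 in WT and at 9.48 FPKM in PU.1-/-, and the Y-linked gene Ddx3y at 20.97 FPKM in WT and at 0 in PU.1-/-, so that genotype and the sex of the pups cannot be told apart in any ratio below. In bulk tissue, fewer cells of a type and less RNA per cell cannot be told apart either.

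Wnt proteins are lipid-modified, secreted signals that bind Frizzled receptors. In the canonical branch they also engage the co-receptors LRP5 and LRP6 and stabilize beta-catenin, which then acts with TCF/LEF factors on target genes, whereas in the non-canonical branch they act on cell polarity, movement and calcium. Secreted inhibitors work at 2 points, since WIF1 and the SFRP proteins bind the Wnt proteins themselves while DKK proteins such as DKK2 bind the LRP co-receptors. In skin the pathway is known for its part in hair follicle formation, in the dermal fibroblast lineage and in repair.

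Promoter sequences of 3 of the genes are shown because they stand for the 3 roles, target, inhibitor and ligand, and because TCF/LEF factors act through a short DNA element that can be looked for. The RefSeq table for GRCm38.p6, the assembly of mm10, held start sites for 6 of the 10 genes (7 windows), and Sfrp1, Sfrp4, Dkk3 and Wnt5a were not matched. Each line gives the 250 bases before a start site on the plus strand, in lower case, with capitals for the letters CTTTG, the core of the TCF/LEF element, on either strand, and for the longer forms. The first longer form is CTTTGAA, another is spelled CTTTGAT, a further form reads CTTTGTA, and the last to be searched was CTTTGTT. The Axin2 window (chr11:108920099-108920348) lies inside the annotated gene, before a later start site, the Wif1 window is chr10:121033754-121034003, and the Wnt11 window is chr7:98834862-98835111.
Axin2: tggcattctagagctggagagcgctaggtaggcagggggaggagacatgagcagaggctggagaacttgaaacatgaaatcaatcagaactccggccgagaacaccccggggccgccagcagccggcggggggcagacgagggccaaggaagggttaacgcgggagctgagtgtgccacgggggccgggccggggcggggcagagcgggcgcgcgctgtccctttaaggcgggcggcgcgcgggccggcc
Wif1: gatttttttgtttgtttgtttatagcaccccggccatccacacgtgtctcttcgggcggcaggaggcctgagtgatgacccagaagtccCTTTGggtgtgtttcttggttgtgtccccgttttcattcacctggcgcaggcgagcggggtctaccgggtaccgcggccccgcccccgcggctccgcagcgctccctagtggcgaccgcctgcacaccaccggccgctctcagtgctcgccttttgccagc
Wnt11: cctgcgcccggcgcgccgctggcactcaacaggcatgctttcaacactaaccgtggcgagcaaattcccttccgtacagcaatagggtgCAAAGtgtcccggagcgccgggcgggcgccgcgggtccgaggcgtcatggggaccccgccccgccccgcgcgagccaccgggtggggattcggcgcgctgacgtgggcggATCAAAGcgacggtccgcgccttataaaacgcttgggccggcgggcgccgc
A longer form was found in 1 of the 7 windows, that of Wnt11, where ATCAAAG, the reverse complement of a form above, begins 51 bases before the start. Of all 32851 windows of this length, 14.8% hold a longer form and 48.6% hold the core, which was found in 3 of the 7 windows (Wnt11, Wif1 and Dkk2). The letters TATAAA on the plus strand begin 29 bases before the start in Wnt11, and 32 bases before it in Dkk2, against 7.59% of all windows that hold them anywhere. These distances run to the start site at the end of each window. In Wnt11 and Dkk2 that site lies inside the gene as placed below, after its first base. The letters GAGGAAGT, a form of the PU.1 element, were in none of the 7 windows on either strand and in 2.44% of all windows. These are matches of letters within the windows, and binding of any factor was not measured.

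Among the ligands, Wnt4 was higher, Wnt11 lower and Wnt5a nearly equal in the PU.1-/- wound. Wnt4, a ligand of epidermis and dermis that can act in both branches of the pathway, lies on chromosome 4 of GRCm38 from 137277635 to 137299501. It had 48.1 FPKM in WT against 62.5 FPKM in PU.1-/-, a PU.1-/- over WT ratio of 1.30 (interval 1.24 to 1.36). It was the most abundant of the 10 genes in both libraries, and its share of the summed FPKM of all 19 Wnt ligands was 41.1% in WT and 48.4% in PU.1-/-. Wnt11, a mostly non-canonical ligand, lies on chromosome 7 from 98835084 to 98854747. It had 7.34 FPKM in WT against 5.73 FPKM in PU.1-/- (ratio 0.781, interval 0.664 to 0.916). Wnt11 was the only member of the list whose interval lay wholly below 1. RefSeq transcripts of different length are annotated for Wnt11, and with the shortest of them the estimated reads were 161 and 144 and the interval ran from 0.618 to 0.981. Wnt5a, the best known non-canonical ligand of dermal fibroblasts, lies on chromosome 14 from 28504543 to 28527448. It had 7.87 FPKM in WT against 7.65 FPKM in PU.1-/- (ratio 0.972, interval 0.879 to 1.08), which includes 1. The sum of the 3 ligands was 63.3 FPKM in WT against 75.9 FPKM in PU.1-/-, and Wnt4 alone had 14.4 FPKM more.

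The secreted inhibitors Wif1, Dkk3 and Sfrp4 were higher in the PU.1-/- wound, while the ratios of Sfrp1, Sfrp2 and Dkk2 lay between 0.865 and 1.16. Wif1 binds Wnt proteins outside the cell and lies on chromosome 10 from 121034004 to 121100642. It had 27.4 FPKM in WT against 41.6 FPKM in PU.1-/- (ratio 1.52, interval 1.39 to 1.66). Dkk3, a divergent Dickkopf family member whose action on Wnt signalling is less direct than that of the others, lies on chromosome 7 from 112116019 to 112159482. Its levels were 20.8 and 30.2 FPKM, a ratio of 1.46 (interval 1.34 to 1.59). Both lower bounds were above 1.3 and both upper bounds below 2, so that counting error leaves each of these differences between 1.3-fold and 2-fold. Wif1 and Dkk3 together made up 51.7% of the summed FPKM of the 14 secreted inhibitors listed in WT and 60.3% in PU.1-/-. Of the 26.1 FPKM by which that sum was higher in PU.1-/-, they held 23.7 FPKM.

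Sfrp4, a secreted Frizzled-related protein expressed in mesenchymal cells, lies on chromosome 13 from 19623175 to 19632825. It had 1.54 FPKM in WT against 3.33 FPKM in PU.1-/- (ratio 2.16). The value rests on few reads, 33 in WT and 82 in PU.1-/- by transcript length, and the same whole numbers give the ratio of the deposited values within a relative difference of 1e-05. The interval of the ratio ran from 1.43 to 3.35 and so spans the threshold of 2. The counting intervals of the 2 levels (1.06 to 2.16 FPKM in WT, 2.64 to 4.13 FPKM in PU.1-/-) did not overlap. Sfrp4 was selected on these same values, so the gap between the intervals is no support for its rise. With 1 FPKM added to both values the ratio was 1.70. Sfrp4 was the lowest of the 10 genes in WT and, with Dkk2, 1 of the 2 lowest in PU.1-/-, so that its difference of more than 2-fold is under 2 FPKM.

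Sfrp2, an SFRP of dermal fibroblasts, lies on chromosome 3 from 83765750 to 83774314 and had 15.9 FPKM in WT against 16.01 FPKM in PU.1-/- (ratio 1.01, interval 0.877 to 1.15). Sfrp1, which binds Wnt proteins through its cysteine-rich domain, lies on chromosome 8 from 23411383 to 23449632. Its levels were 6.71 and 7.75 FPKM, a ratio of 1.16 (interval 1.01 to 1.32). Dkk2, an inhibitor that binds LRP5 and LRP6, lies on chromosome 3 from 132085266 to 132180304. It had 3.13 FPKM in WT against 2.71 FPKM in PU.1-/- (ratio 0.865, interval 0.685 to 1.09), from about 151 and 150 reads. The 6 inhibitors together summed to 75.4 FPKM in WT against 102 FPKM in PU.1-/-.

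Axin2, a scaffold of the complex that degrades beta-catenin, is itself switched on by canonical signalling and is often used as its readout. It lies on chromosome 11 from 108917828 to 108950783. It had 8.53 FPKM in WT against 9.9997 FPKM in PU.1-/- (ratio 1.17, interval 1.04 to 1.32). The 10 markers of fibroblasts had a median log2 ratio of 0.26 and the 10 of keratinocytes a median of 0.20, beside the log2 ratio of Axin2, 0.23. With the fibroblast median set to 0, the log2 ratio of Axin2 was −0.028. That value depends on the marker list taken as reference, since the 10 markers of hair follicle epithelium had a median of −0.26. The part of cell makeup in the ratio of Axin2 was not tested.

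**Figure D1:**
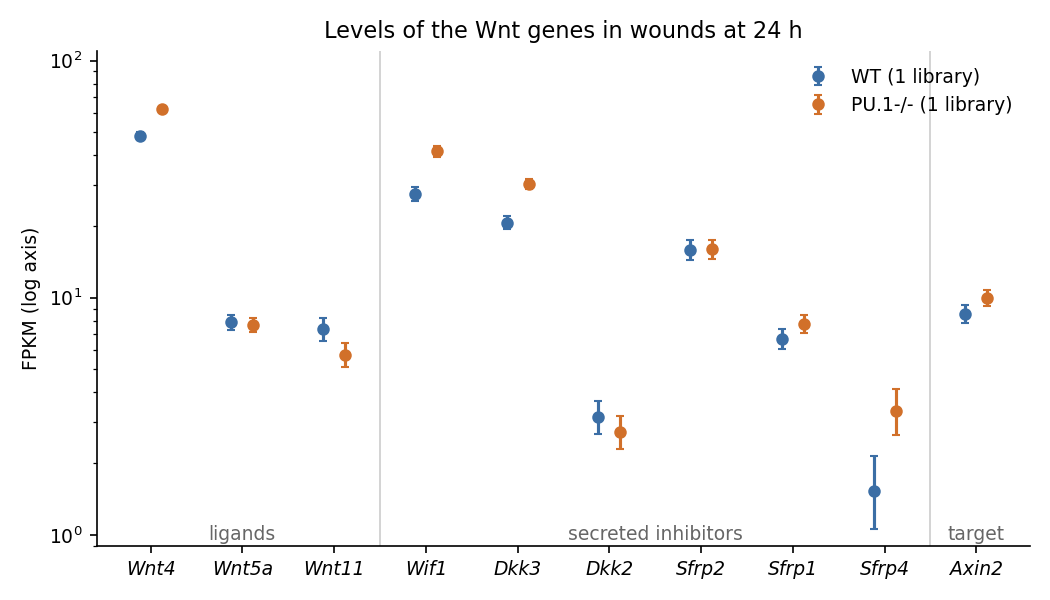
Level of each of the 10 genes in FPKM on a log axis, with 1 point for the WT library and 1 for the PU.1-/- library and bars for the 95% counting interval. Wnt4 is highest at 48.1 and 62.5 FPKM, and the bars of Wnt4, Wif1, Dkk3, Sfrp4 and Wnt11 do not overlap between the libraries.

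Over the list, 7 of the 10 genes had the higher value in PU.1-/- and 3 in WT. The counting interval lay above 1 for Wnt4, Wif1, Dkk3, Sfrp4, Sfrp1 and Axin2, below 1 for Wnt11, and on both sides of 1 for Wnt5a, Sfrp2 and Dkk2. For Sfrp4 this follows its selection. The shares of all genes with a higher value or with such intervals were not computed, so these counts describe the 10 genes only. Values were also higher for 9 of 10 fibroblast and 9 of 10 keratinocyte markers, but for 2 of 10 hair follicle epithelium markers. The log2 ratios ran from −0.36 (Wnt11) to 1.11 (Sfrp4), with a median of 0.22. The median over the 13237 genes that reached 1 FPKM in either library was −0.00415, and over the 16298 genes that reached 0.1 FPKM it was −0.00726.

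A gene was counted at a ratio of at least 2, with values below 0.1 FPKM raised to 0.1. Sfrp4 was the 1 member counted as higher and no member was counted as lower. Across all genes listed 2.32% were higher and 4.34% lower by this rule, and among genes that reached 1 FPKM in either library 1.71% and 4.45%. Of the 1209 genes between 1 and 2 FPKM in WT, the range in which Sfrp4 lies, 4.14% were at least 2-fold higher. Sfrp4 was on the list because of this ratio, so nothing can be read from its count. At a ratio of 1.5, Sfrp4 and Wif1 were counted as higher and no member as lower, against 5.45% higher and 8.17% lower among genes of at least 1 FPKM.

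**Figure D2:**
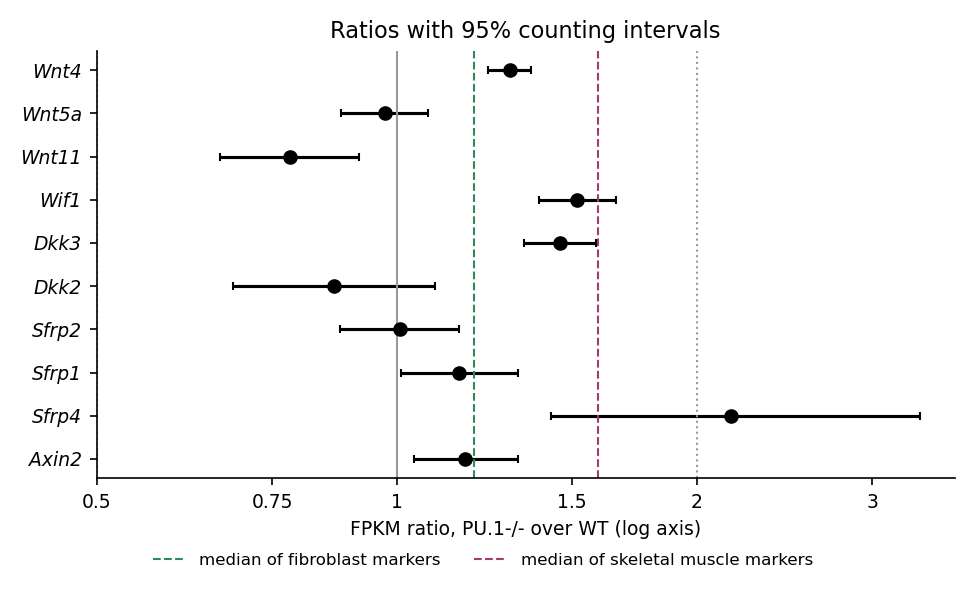
PU.1-/- over WT ratio of each gene on a log axis, with bars for the 95% counting interval, a dotted line at the threshold of 2-fold higher, and dashed lines at the median ratio of 10 fibroblast markers and of 10 skeletal muscle markers. The interval of Sfrp4 crosses 2, and that of Wnt11 is the only interval wholly below 1.

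**Figure D3:**
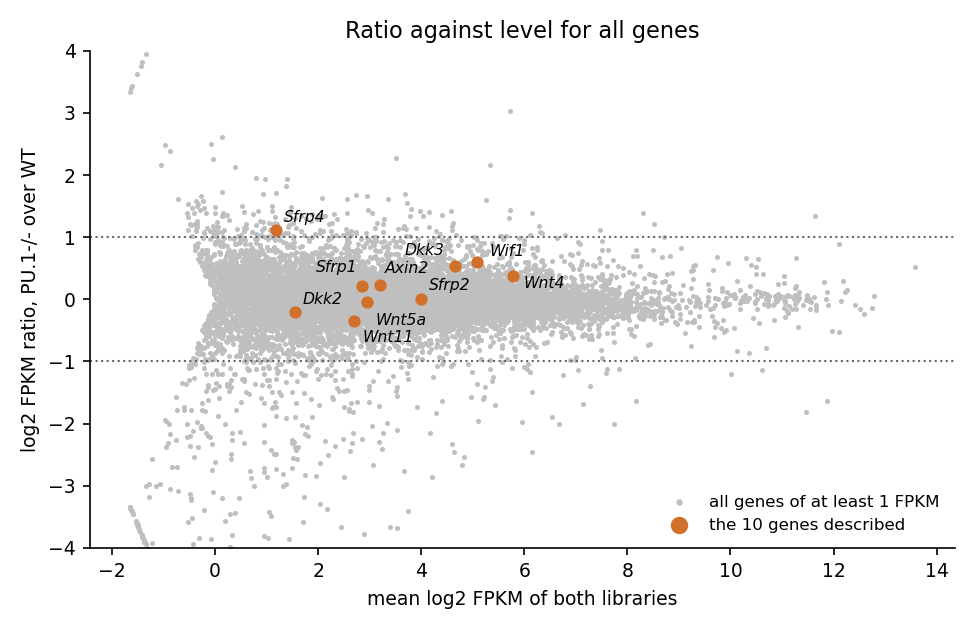
Log2 ratio of PU.1-/- over WT against the mean log2 FPKM of both libraries for the 13237 genes that reached 1 FPKM in either library, with the 10 Wnt genes in orange and dotted lines at 2-fold. The 244 genes with a log2 ratio beyond 4 either way are outside the plotted range, and 9 of the 10 Wnt genes lie between the dotted lines.

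Levels can be ordered within a library, since FPKM is per length. In WT the order from high to low was Wnt4, Wif1, Dkk3, Sfrp2, Axin2, Wnt5a, Wnt11, Sfrp1, Dkk2 and Sfrp4. The neighbours Axin2 and Wnt5a, Wnt5a and Wnt11, and Wnt11 and Sfrp1 had overlapping counting intervals, and the other neighbours did not. In PU.1-/- the first 5 genes kept their places, followed by Sfrp1, Wnt5a, Wnt11, Sfrp4 and Dkk2. There the intervals overlapped between Sfrp1 and Wnt5a (7.75 and 7.65 FPKM) and between Sfrp4 and Dkk2 (3.33 and 2.71 FPKM). The pair Dkk2 and Sfrp4 thus stood apart in WT, with Dkk2 2.04 times higher, and had overlapping intervals in PU.1-/-. Sfrp4 was selected on its rise, so this change of order is no separate result.

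The wider pathway was read from 7 lists of 89 different genes, which include the 10 described above. Of these, 75 reached 1 FPKM in 1 or both libraries, with a median log2 ratio of 0.13. By the 2-fold rule 3 of the 89 were higher, Sfrp4, Sost and Rspo2, and 1 was lower, Dkk1. Across all genes listed 2.32% were higher and 4.34% lower, and Sfrp4 was selected on its rise. Sost, Rspo2 and Dkk1 were named after their values were seen, and each is below 1 FPKM in both libraries. Sost, an LRP inhibitor known from bone, had 0.155 and 0.507 FPKM (ratio 3.26, interval 1.04 to 13.5, from 4 and 15 reads). Rspo2, a secreted amplifier of Wnt signalling, had 0.0690 and 0.200 FPKM from 3 and 10 reads, and its interval ran from 0.747 to 16.4. Dkk1, the classic LRP inhibitor, had 0.249 and 0.0929 FPKM from 8 and 3 reads, with an interval of 0.0558 to 1.36.

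Of the 19 ligands, 13 reached 1 FPKM and none was at a ratio of 2 either way. Between 1.5-fold and 2-fold, Wnt9a was higher at 1.90 and 3.57 FPKM (ratio 1.88, interval 1.45 to 2.49), Wnt5b at 1.51 and 2.70 FPKM (1.78, 1.23 to 2.60) and Wnt16 at 2.97 and 4.61 FPKM (1.55, 1.11 to 2.15). Wnt2, a canonical ligand of mesenchymal cells, was lower at 6.39 and 3.69 FPKM (0.577, interval 0.457 to 0.735), and Wnt3a, the ligand most used to activate the canonical branch in culture, at 1.79 and 1.11 FPKM (0.622, 0.415 to 0.926). The median log2 ratio of the 13 was 0.05. After Wnt4 the most abundant ligand was Wnt10a, known for its part in hair and tooth development, at 13.6 FPKM in WT against 11.3 FPKM in PU.1-/- (ratio 0.826, interval 0.720 to 0.951). Wnt8b was listed at 0 in both libraries, and Wnt1 and Wnt8a at 0 in PU.1-/-.
Of the 14 secreted inhibitors, 9 reached 1 FPKM, with a median log2 ratio of 0.21. Besides the genes described above, Sfrp5 had 0.810 and 1.37 FPKM (ratio 1.70, interval 0.950 to 3.12, on 19 and 37 reads). Sostdc1, an inhibitor of both Wnt and BMP signals in skin appendages, had 13.9 and 13.2 FPKM (0.947, interval 0.806 to 1.11). Notum, an enzyme that removes the lipid from Wnt proteins, had 1.63 and 1.56 FPKM.

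All 18 receptors and co-receptors reached 1 FPKM, 14 of them with the higher value in PU.1-/-, none at 1.5-fold, and their median log2 ratio was 0.13. The share of all genes with a higher value was not computed, so the count describes this list only. Fibroblast and keratinocyte markers were also higher in value for 9 of 10 each. Ryk, a non-canonical receptor, was the most abundant at 64.1 and 71.0 FPKM, followed by Ptk7 at 50.6 and 57.3 FPKM. Kremen1, the receptor through which DKK proteins remove LRP6 from the membrane, had the largest ratio of this list, with 32.0 and 43.2 FPKM (1.35, interval 1.28 to 1.43). In the R-spondin axis all 9 genes had the higher value in PU.1-/-, with a median log2 ratio of 0.26. The median of the 10 fibroblast markers was also 0.26, and here too the share of all genes with a higher value was not computed. Intervals lay above 1 for Rspo1, Lgr5, Lgr6 and Znrf3, and included 1 for Rspo2, Rspo3, Lgr4 and Rnf43. Rspo4 had 3 and 4 reads and an interval of 0.196 to 7.92. The most abundant genes of the axis were the R-spondin receptors Lgr4, at 20.0 and 20.9 FPKM, and Lgr6, at 8.44 and 10.1 FPKM. Wls, which carries Wnt proteins to the cell surface, had 54.2 and 52.0 FPKM, and Porcn, which attaches their lipid, 8.48 and 7.65 FPKM.
Among 20 intracellular components the median log2 ratio was 0.11. The kinase gene Csnk1a1 had 248 and 271 FPKM and Ctnnb1, which encodes beta-catenin, 248 and 261 FPKM. Pygo1, a nuclear cofactor of beta-catenin, was the 1 gene of this list past 1.5-fold, at 1.08 and 1.88 FPKM (1.74, interval 1.38 to 2.19). The 14 feedback targets, of which 12 reached 1 FPKM, had a median log2 ratio of 0.23 over those 12, of which Axin2 is 1. Some targets are also in other lists, such as Lgr5, Znrf3 and Rnf43 in the R-spondin axis and Lef1 among the intracellular components. Their values are the same in both lists and are no separate observations. Apcdd1, a membrane inhibitor of the pathway, had 51.2 and 65.8 FPKM (1.29, interval 1.19 to 1.38), and Myc, which is also controlled by many other signals, 51.0 and 59.7 FPKM. Nkd1, an inhibitor induced by canonical signalling, had 4.28 and 5.68 FPKM (1.33, interval 1.12 to 1.58), while its relative Nkd2 had 8.56 and 7.24 FPKM (0.846, interval 0.739 to 0.967). The targets did not all lie on 1 side of equality, with 9 of the 14 higher in value in PU.1-/- and 5 lower. This count too stands without the share of all genes with a higher value. The intervals of Lef1, Znrf3, Lgr5 (ratio 1.47, interval 1.21 to 1.79) and Myc also lay above 1. Nkd2 was the only target whose interval lay wholly below 1.

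**Figure D4:**
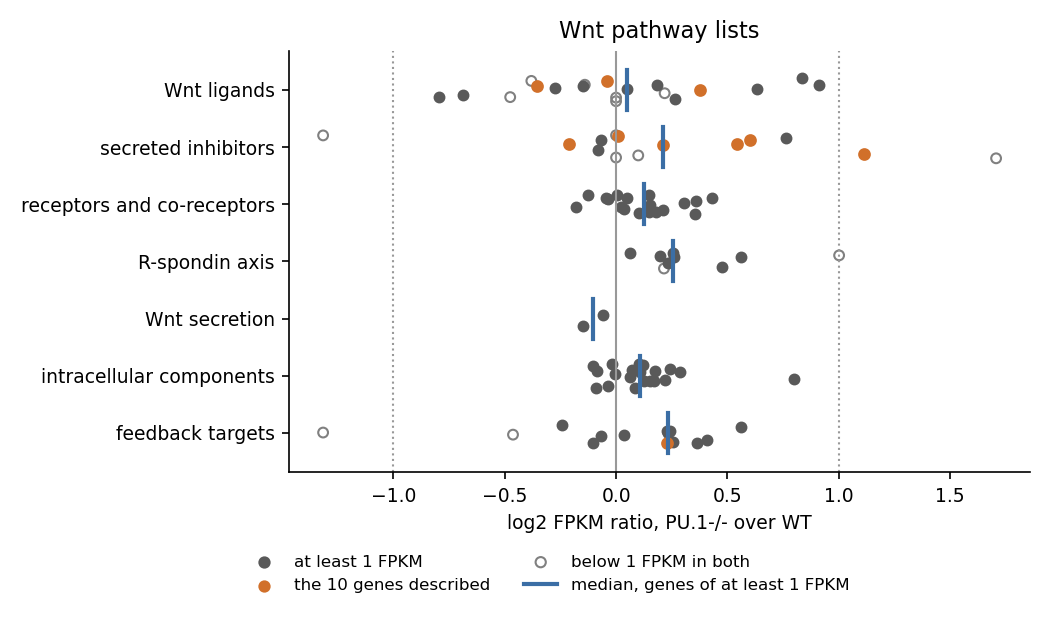
Log2 ratio of PU.1-/- over WT for each gene of the 7 pathway lists, where filled points reach 1 FPKM in 1 or both libraries, open points do not, orange points are the 10 genes described, blue lines are the medians of the filled points and dotted lines mark 2-fold. Sfrp4, which was selected on its rise, is the only filled point beyond a dotted line. The receptors lie between −0.18 and 0.43. Ligands and inhibitors reach further, where points such as Sfrp5 (19 and 37 reads) and Wnt5b (45 and 92 reads) rest on few reads. The difference in spread was not tested.

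Markers of several cell types moved with the genotype, beside which the Wnt values stand. All 10 macrophage markers were lower in PU.1-/-, with a summed level of 722 FPKM in WT against 5.74 FPKM in PU.1-/-, and Adgre1, C1qa, C1qb, C1qc, Tyrobp and Aif1 were listed at 0 there. All 10 neutrophil markers were lower in value, 8 of them by 2-fold, and Ngp, Ltf, Retnlg and Csf3r were at 0 in PU.1-/-. Their sums were 12566 and 3676 FPKM. Most of both sums was held by S100a8 (6600 and 2129 FPKM) and S100a9 (5311 and 1516 FPKM). The sums are therefore no measure of neutrophil number, and the paper describes PU.1-/- mice as lacking neutrophils. Fibroblast markers were higher in value for 9 of 10, with sums of 2910 and 3411 FPKM, and keratinocyte markers for 9 of 10, with sums of 10359 and 11961 FPKM. No fibroblast or keratinocyte marker was listed at 0. Relative to the fibroblast median, the log2 ratio of Wif1 was 0.35, that of Dkk3 0.29, that of Wnt4 0.12 and that of Wnt11 −0.61, while that of Sfrp4 was 0.86, below the 2-fold threshold.
Skeletal muscle markers were higher for 10 of 10, with sums of 9636 FPKM in WT against 16068 FPKM in PU.1-/-, a median log2 ratio of 0.67 and no marker at 0. The 5 genes whose log2 ratio lay nearest to that of Sfrp4, among the 7256 genes that reached 10 FPKM in either library, were Atp2a1, Cdh15, Iffo1, Hrc and Cacnb1, within 0.02 of it. Atp2a1, a calcium pump of fast muscle, had 121 and 262 FPKM (ratio 2.17), and Cdh15, the cadherin of muscle cells, 16.4 and 35.7 FPKM (2.18). With only 2 libraries this likeness is that of a single ratio, by which the 5 genes were picked. The counting interval of the log2 ratio of Sfrp4 ran from 0.51 to 1.74, far wider than 0.02. A shared cell source of Sfrp4 and these genes was not tested. The part of the cell makeup of the samples in the ratios of Sfrp4, Wif1, Dkk3, Wnt4, Wnt11 and Axin2 was not tested.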

How the data were processed

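Bulk mRNA of 1 WT and 1 PU.1-/- wound library was prepared with a stranded TruSeq kit and read as 75-base single ends. The authors used CASAVA 1.8.2 for base calling and the mm10 genome, and deposited FPKM values made with Cuffnorm 2.2.1. The submitters' processing notes name TopHat2 2.1.1, Bowtie2 2.2.8, SAMtools 0.1.18 and Cuffdiff 2.2.1. The gene annotation used is not given in the sources used here.

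Ratios of PU.1-/- over WT were taken from the deposited FPKM with values below 0.1 raised to 0.1. No test was possible with 1 library per group. Below 2 FPKM in WT, 459 genes had the same ratio between the libraries, 1.15 for WT over PU.1-/-, as equal read numbers give. Lengths were those of GENCODE M21 transcripts linked to RefSeq (the longest, less 200 bases). With them, 115 of 417 such genes lay close to 1 common value, the most frequent, which was taken as 1 read. The estimates are too high where the authors' transcript was shorter. The functions were tested on simulated data. The 10 genes, the 7 pathway lists, the 13 lists of 10 markers and the rules were chosen with earlier results of these data known. Named genes were the 10, the pathway genes past 1.5-fold at 1 FPKM or more, the 2 most abundant genes of each pathway list, the 5 genes nearest in ratio to Sfrp4, and Spi1. Dkk1, Sost, Kremen1, Sostdc1, Notum, Nkd1, Nkd2, Xist, Ddx3y and single marker genes were named after their values were seen. So were Rspo1, Rspo2, Rspo3, Rspo4, Lgr5, Znrf3, Rnf43 and Lef1. In all, 9 alternatives of floor, pseudocount, filter, scaling and fold threshold were tried. The software was scipy 1.17.1, numpy 2.4.6, pandas 2.3.3, matplotlib 3.10.9 and Python 3.11.15.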

Additional observations from a re-analysis of the deposited data

How the results depend on the processing

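Under the 7 alternatives of floor, pseudocount, filter and scaling, the log2 ratio of Sfrp4 kept its direction, between 0.77 and 1.16, and stayed within its counting interval. Sfrp4 was selected on this rise, so the kept direction is no support for it. The floor and the filter of 1 FPKM could not move its value, and a pseudocount cannot turn a sign. The number of the 10 genes at least 2-fold higher was 1, and became 0 with a pseudocount of 1 FPKM, 0 with the fibroblast median set to 0, 2 at a threshold of 1.5 and 0 at a threshold of 3, while the number at least 2-fold lower was 0 throughout. The median log2 ratio of the 10 genes (0.22) became −0.038 with the fibroblast median set to 0, a shift of −0.26 for every gene, and the other scalings shifted ratios by at most 0.05. That scaling also turned the sign of Sfrp1 (to −0.048) and Axin2 (to −0.028) and took Sfrp2 to −0.25, while scaling to equal FPKM sums took Wnt5a to 0.0056. Of the single genes other than Sfrp4, 8 values left their counting intervals, all under the fibroblast scaling. By the 2-fold rule 2.32% of all genes listed were higher and 4.34% lower. Of the 89 pathway genes, 3 were at least 2-fold higher and 1 lower. These became 1 and 0 with a floor of 1 FPKM, 0 and 0 with a pseudocount of 1 FPKM, 1 and 0 among genes of at least 1 FPKM, 1 and 2 with the fibroblast median set to 0, 2 and 1 with equal upper quartiles, 9 and 3 at a threshold of 1.5, and 1 and 0 at a threshold of 3. At 1.5-fold, 7 of the 75 pathway genes of at least 1 FPKM were higher and 2 lower, beside 5.45% and 8.17% of all such genes. Shares of all genes with a floor or pseudocount of 1 FPKM, under the scalings and at 3-fold were not computed. No paired analysis was possible because each genotype is 1 library, and for the same reason no library could be left out. Depth limits the ratios of genes on few reads, such as Sost (4 and 15 reads), Rspo2 (3 and 10) and Dkk1 (8 and 3), and it limits that of Sfrp4 (33 and 82) more than those of the other 9 genes.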

Other observations

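Cells in which Wnt signalling is well known in skin were described by further marker lists. Of 10 markers of the hair follicle epithelium, 8 had the lower value in PU.1-/-, with sums of 1559 and 1329 FPKM in WT and PU.1-/- and a median log2 ratio of −0.26. Krt71, a keratin of the inner root sheath, had 211 and 144 FPKM, and Krt25, another of them, 316 and 227 FPKM. The 10 markers of the dermal papilla, the mesenchymal signalling centre of the follicle, had sums of 95.7 and 101 FPKM, with 6 higher and 4 lower in value. Corin, a protease of the dermal papilla, had 0.464 and 1.31 FPKM and Lepr 10.4 and 17.5 FPKM, while Crabp1 had 33.0 and 23.9 FPKM.

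Adipocyte markers had sums of 4452 and 3499 FPKM in WT and PU.1-/-, with 9 of 10 lower in value and 4 by 2-fold, among them Cfd at 504 and 162 FPKM and Retn at 166 and 30.3 FPKM. All 10 Schwann cell markers were higher in value in PU.1-/-, with sums of 74.2 and 100 FPKM. Sums for tendon and fascia were 263 and 250 FPKM, with 5 of 10 higher and 4 lower in value. Tnc, a matrix protein, had 204 and 181 FPKM, Scx, a transcription factor of tendon, had 5.07 and 13.3 FPKM, and Chad was listed at 0 in both libraries. Endothelial markers summed to 238 and 262 FPKM, melanocyte markers to 229 and 249 FPKM, and smooth muscle and pericyte markers to 579 and 877 FPKM, of which Des, also a gene of skeletal muscle, held 396 and 699 FPKM. None of these values was tested against the Wnt genes. The share of all genes with a higher or lower value was not computed, so the counts of markers describe the lists only.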
